A study of Mus musculus with 2 samples.

Results

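Conventional dendritic cells were followed in 2 single-cell RNA-seq libraries of mouse lung, one from *Cebpa* fl/fl mice and one from *Cebpa* ΔSftpc mice. Cells were chosen by their transcripts: at least 1500 unique molecular identifiers (UMIs), at least 30 UMIs of the class II genes *H2-Eb1*, *H2-Ab1* and *Cd74*, and at least 2 UMIs of *Flt3*, *Ccl17*, *Cd209a*, *Xcr1*, *Clec9a*, *Itgae* and *Ccr7* together. Cells with 5 or more UMIs of the C1q genes, 3 or more UMIs of alveolar macrophage genes (*Marco*, *Ear1*, *Plet1*, *Atp6v0d2*), any UMI of *Cd79a*, *Ms4a1* or the *Cd3* genes, or 3% or more of their UMIs from *Sftpc* were left out. The rule kept 98 of 24725 cells, of which 6 came from the *Cebpa* fl/fl library and 92 from the *Cebpa* ΔSftpc library. These cells are called gated cells here.

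*Cebpa* encodes a transcription factor of alveolar type 2 (AT2) epithelium and of myeloid cells. *Cebpa* ΔSftpc mice carried both floxed *Cebpa* alleles and a tamoxifen-inducible Cre driven by the *Sftpc* promoter and meant to act in AT2 cells. *Cebpa* fl/fl mice, with the floxed alleles alone, were the controls. Per the study's methods, deletion was induced by 5 daily injections of 75 mg/kg tamoxifen with a later weekly round, the mice were of mixed genetic background and 3 months old unless stated otherwise, and lungs of 3 mice per genotype were taken 26 weeks after the first injection. Each genotype was 1 library, so no test between genotypes was possible and every interval below covers counting error only.

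Dendritic cells take up antigen, present it on MHC class II and carry it to lymph nodes. The conventional type 1 cells (cDC1), marked by *Xcr1* and *Clec9a*, depend on IRF8 and cross-present antigen to CD8 T cells. Type 2 cells (cDC2), of which *Cd209a* is one marker, are more varied and share genes with monocytes. Either type can mature, whereupon it expresses *Ccr7*, the receptor that guides it to lymph nodes.

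The *Cebpa* fl/fl library held 69200420 UMIs in 11721 barcodes and the *Cebpa* ΔSftpc library 64697396 UMIs in 13373 barcodes. Cells with at least 1500 UMIs numbered 9883 and 9103, with medians of 5467 and 5099 UMIs per cell. Gated cells were deeper, with medians of 12943 UMIs (range 7975 to 17449) in *Cebpa* fl/fl and 13749 UMIs (range 1553 to 38827) in *Cebpa* ΔSftpc. The libraries shared 45 barcodes, and no gated cell carried one of them.

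Gated cells formed 0.0607% of cells in the *Cebpa* fl/fl library (6 of 9883, 95% exact interval 0.0223% to 0.132%) and 1.01% in the *Cebpa* ΔSftpc library (92 of 9103, 0.815% to 1.24%). The log2 ratio was 4.06 (2.88 to 5.54), which is 16.6-fold. Cells with a leukocyte transcript differed as much between the libraries. Cells with a UMI of *Ptprc*, which encodes the leukocyte antigen CD45, made up 1.88% of *Cebpa* fl/fl cells (186 cells) and 35.8% of *Cebpa* ΔSftpc cells (3256 cells), a log2 ratio of 4.25 (4.03 to 4.47). Among *Ptprc*-positive cells, gated cells formed 2.69% (5 of 186, 0.878% to 6.16%) and 2.55% (83 of 3256, 2.04% to 3.15%), a log2 ratio of −0.077 (−1.36 to 1.58). The background share of a single *Ptprc* UMI was not measured, since the endothelial and AT2 gates held no *Ptprc*-positive cell. *S100a8*, a transcript of neutrophils, had a UMI in 29.2% of *Cebpa* ΔSftpc endothelial cells and 0.911% of those of *Cebpa* fl/fl. More dendritic cells per lung and a different yield of leukocytes in the suspension cannot be told apart with these libraries. Free RNA moved with the library too: *Sftpc*, an AT2 transcript, was at 570.1 CPM (UMIs of a gene per 1e6 UMIs, over cells summed) in *Cebpa* fl/fl gated cells and 72.3 CPM in *Cebpa* ΔSftpc gated cells, and its part in the results was not tested.

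**Figure D1:**
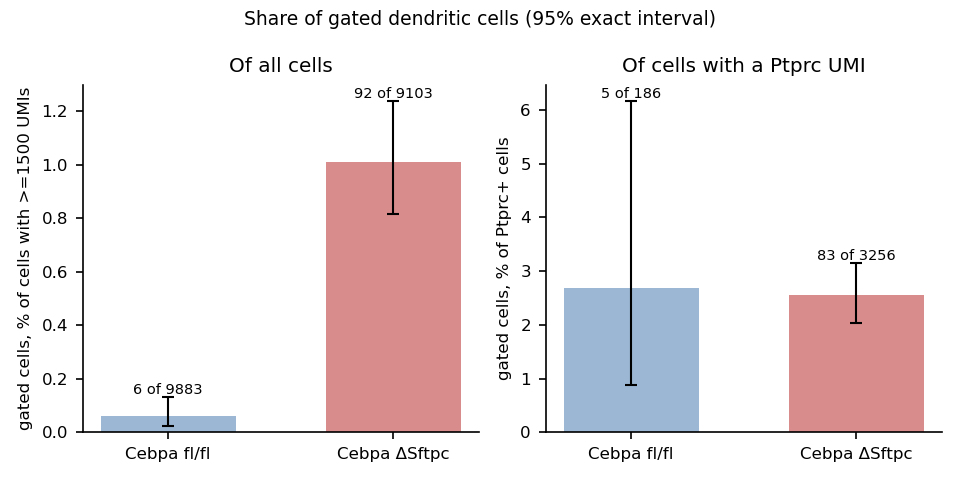
Share of gated dendritic cells in each library, as percent of all cells with at least 1500 UMIs (left) and of cells with a *Ptprc* UMI (right); bars are the shares, error bars the 95% exact binomial interval, and the counts are printed above. The share of all cells is 0.0607% and 1.01%, while the shares of *Ptprc*-positive cells, 2.69% and 2.55%, have overlapping intervals.

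Other leukocytes gated in the same libraries also formed a larger share in *Cebpa* ΔSftpc. Monocytes (6 and 104 cells) had a log2 ratio of 4.23 (3.06 to 5.71), B cells (48 and 383 cells) 3.11 (2.68 to 3.58), and C1q macrophages (18 and 66 cells) 1.99 (1.22 to 2.83). Endothelial cells (7353 and 4958 cells) fell by 0.45 and AT2 cells (460 and 123 cells) fell by 1.78 on the log2 scale. Cells picked by the alveolar macrophage genes went against their name in the *Cebpa* fl/fl library, where 1 of the 113 had a *Ptprc* UMI and *Chil3* and the other alveolar macrophage list genes summed to 173.4 CPM, against 12838 CPM in the same gate of *Cebpa* ΔSftpc. Comparisons with alveolar macrophages therefore rest on the *Cebpa* ΔSftpc library. The airway gene *Scgb1a1* was high in this gate in both libraries, at 3827 CPM in *Cebpa* fl/fl and 8974 CPM in *Cebpa* ΔSftpc. Other gates also held genes of another lineage. Monocytes of *Cebpa* ΔSftpc had the neutrophil list at 20479 CPM and the monocyte list at 4723 CPM. In *Cebpa* fl/fl monocytes the neutrophil list was at 134.1 CPM. B cells of *Cebpa* fl/fl had the erythroid list at 27451 CPM and the B cell list at 12640 CPM.

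The targeted gene differed little between the libraries in AT2 cells, the cells in which the Cre was meant to act. *Cebpa*, on chromosome 7 (35119293 to 35121928, GRCm38), stood at 152.3 CPM in AT2 cells of *Cebpa* fl/fl and 136.0 CPM in AT2 cells of *Cebpa* ΔSftpc, a log2 ratio of −0.16 (−0.40 to 0.07), so its level here does not check the labels. Gated cells held 1 *Cebpa* UMI in *Cebpa* fl/fl (12.96 CPM) and 105 UMIs in *Cebpa* ΔSftpc (90.4 CPM), and the interval of their log2 ratio, −0.37 to 3.52, covered 0.

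The gene threshold of the rule had more cells just outside than just inside it. In the *Cebpa* ΔSftpc library 11 gated cells had exactly 2 UMIs of the 7 dendritic cell genes, while 34 cells that met all other conditions had a single UMI of them, and 5 gated cells had 30 to 39 class II UMIs against 10 cells with 20 to 29 left outside. In *Cebpa* fl/fl, 1 gated cell had exactly 2 such UMIs and 4 cells had 1. Among cells with class II and dendritic cell genes, most were lost at the B cell genes, which took the *Cebpa* ΔSftpc cells from 308 to 100 and the *Cebpa* fl/fl cells from 29 to 6.

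Which dendritic cells these were can be read from the marker genes in the rule. They define 4 entry groups, a description of the rule and not cell types: cells with at least 2 *Ccr7* UMIs; of the rest, those with more *Xcr1* plus *Clec9a* than *Cd209a*; those with more *Cd209a*; and those with *Ccl17*, a chemokine gene, and no UMI of *Xcr1*, *Clec9a* or *Cd209a*. In *Cebpa* ΔSftpc the *Cd209a* group held 41 cells (44.6%, 34.2% to 55.3%), the *Xcr1* or *Clec9a* group 38 cells (41.3%, 31.1% to 52.1%), the *Ccl17* group 8 cells (8.70%, 3.83% to 16.4%) and the *Ccr7* group 5 cells (5.43%, 1.79% to 12.2%). In *Cebpa* fl/fl the groups held 3, 1, 0 and 2 cells. Among the 92 *Cebpa* ΔSftpc cells, *Cd209a* had a UMI in 48, *Flt3* in 47, *Ccl17* in 39, *Clec9a* in 38, *Itgae* in 33, *Xcr1* in 32 and *Ccr7* in 5, and 15 cells entered by *Cd209a* alone.

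The *Xcr1* or *Clec9a* group carried the cDC1 program. *Irf8*, the master factor of this lineage (chromosome 8, 120736358 to 120756694), stood at 1553 CPM against 180.4 CPM in the *Cd209a* group, a log2 ratio of 3.11 (2.78 to 3.45), and had a UMI in 37 of 38 cells with a median of 18 UMIs. Over all *Cebpa* ΔSftpc gated cells *Irf8* had a UMI in 68.5% (42.4% after thinning each cell to 1500 UMIs), against 5.53% (2.22% thinned) of endothelial cells, which should lack it, at medians of 13749 and 5103 UMIs per cell. In the same library it had a UMI in 65.4% (21.2% thinned) of monocytes and 45.5% (21.2% thinned) of C1q macrophages. *Naaa*, a lysosomal amidase enriched in cDC1, stood at 1068 against 174.0 CPM, and *Wdfy4*, which cDC1 need for cross-presentation, at 614.7 against 152.5 CPM. *Tlr3*, the receptor for double-stranded RNA, stood at 231.4 against 10.7 CPM, a log2 ratio of 4.43 (3.17 to 6.08). Of the 10 genes of the cDC1 list with 50 or more UMIs, 9 were past 2-fold higher (a log2 ratio of at least 1, a rule of size) and 0 lower, with a median log2 ratio of 2.88. Over all 3074 genes measured in these 2 groups, 6.8% were past 2-fold higher and 6.6% lower, which is the background for the counts in this comparison. *Batf3*, the other factor of the lineage, was the member short of 2-fold, at 157.3 against 94.5 CPM. Since both groups were cut on *Xcr1*, *Clec9a* and *Cd209a*, these counts describe the groups and were not tested.

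Most measured genes of the cDC2 list stood higher in the *Cd209a* group than in the *Xcr1* or *Clec9a* group. *Mgl2*, a C-type lectin of cDC2 and of some macrophages, stood at 994.4 CPM against 54.2 CPM in the *Xcr1* or *Clec9a* group, a log2 ratio of −4.20 (−4.78 to −3.66), though its UMIs lay in 15 of 41 cells. *Clec10a*, a related lectin, stood at 122.4 against 10.8 CPM, *Itgam*, which encodes CD11b, at 184.7 against 16.3 CPM, and *Sirpa*, an inhibitory receptor, at 148.2 against 39.8 CPM. Of 7 cDC2 list genes with enough UMIs, 0 were past 2-fold higher in the *Xcr1* or *Clec9a* group and 6 were lower, with a median log2 ratio of −3.50. *Klf4* was the exception at 339.9 against 328.6 CPM. The list summed to 2113 CPM in the *Cd209a* group, 1772 CPM in C1q macrophages and 1435 CPM in monocytes of the same library, and *Mgl2* stood at 825.1 CPM in C1q macrophages, with UMIs in 62.1% of those cells.

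Of 7 monocyte list genes, 0 were past 2-fold higher in the *Xcr1* or *Clec9a* group and 3 were lower, with a median log2 ratio of −0.35. The 3 were *F13a1*, a coagulation factor chain, at 320.0 CPM in the *Cd209a* group against 3.62 CPM, *Ly6c2*, the surface antigen of classical monocytes, at 463.9 against 128.4 CPM, and *Cd14*, a co-receptor for bacterial lipopolysaccharide, at 219.1 against 75.9 CPM. *Nr4a1* and *Ace*, of non-classical monocytes, stood at 479.0 against 645.4 CPM and at 103.1 against 139.2 CPM. Outside the list, *Lyz2*, lysozyme, stood at 7240 against 1166 CPM and *Cebpb*, a myeloid factor, at 534.8 against 54.2 CPM. *Csf1r*, the receptor for macrophage colony-stimulating factor, had 81 UMIs in the *Cd209a* group against 1, *Fn1*, fibronectin, 142 against 3, and *Ifitm6*, an interferon-induced membrane protein family member, 119 against 1. *Ccr2*, the receptor that brings monocytes and cDC2 precursors from blood, differed little, at 573.5 against 450.2 CPM. Per cell the monocyte list had a median of 15 UMIs in the *Cd209a* group, with at least 3 in 34 of 41 cells, and a median of 20 UMIs in the *Xcr1* or *Clec9a* group, with at least 3 in 35 of 38 cells. Genes of C1q macrophages also stood higher in the *Cd209a* group, 3 of 4 past 2-fold: *Apoe*, an apolipoprotein, stood at 1110 against 39.8 CPM, *Mrc1*, the mannose receptor, at 128.9 against 5.42 CPM, and *Cx3cr1*, the fractalkine receptor, at 223.4 CPM with 104 UMIs against 3 UMIs. Some of these UMIs were concentrated. Within the *Cd209a* group 1 cell held 196 of 517 *Apoe* UMIs. *Ly6c2* lay in 19 of 41 cells, with 85 of its 216 UMIs in 1 cell. The part of monocytes and macrophages in this group was not tested.

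Genes shared by dendritic cells were detected in both groups, though not evenly. Of 9 general dendritic cell list genes, 3 were past 2-fold higher in the *Xcr1* or *Clec9a* group and 0 lower, with a median log2 ratio of 0.76. *H2-Aa*, a class II chain not used by the rule, stood at 6357 CPM in the *Xcr1* or *Clec9a* group and 5692 CPM in the *Cd209a* group, a log2 ratio of 0.16 (0.09 to 0.23), and had a UMI in all 38 and all 41 cells. The gate asked for UMIs of other class II genes in every cell, so this is a description. *Cst3*, cystatin C, stood at 17936 against 7483 CPM, a log2 ratio of 1.26 (1.21 to 1.32). *Itgax*, which encodes CD11c, was at 95.8 and 98.8 CPM, with a UMI in 22 of 38 and 15 of 41 cells. *Zbtb46*, a factor of the general dendritic cell list, had a UMI in 17 of 38 and 10 of 41 cells. Of 10 class II pathway genes, 1 was past 2-fold higher in the *Xcr1* or *Clec9a* group and 2 were lower, *Ctss* (cathepsin S) at 408.6 against 953.6 CPM and *H2-DMb2*, a peptide loading chain, at 41.6 against 141.8 CPM.

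**Figure D2:**
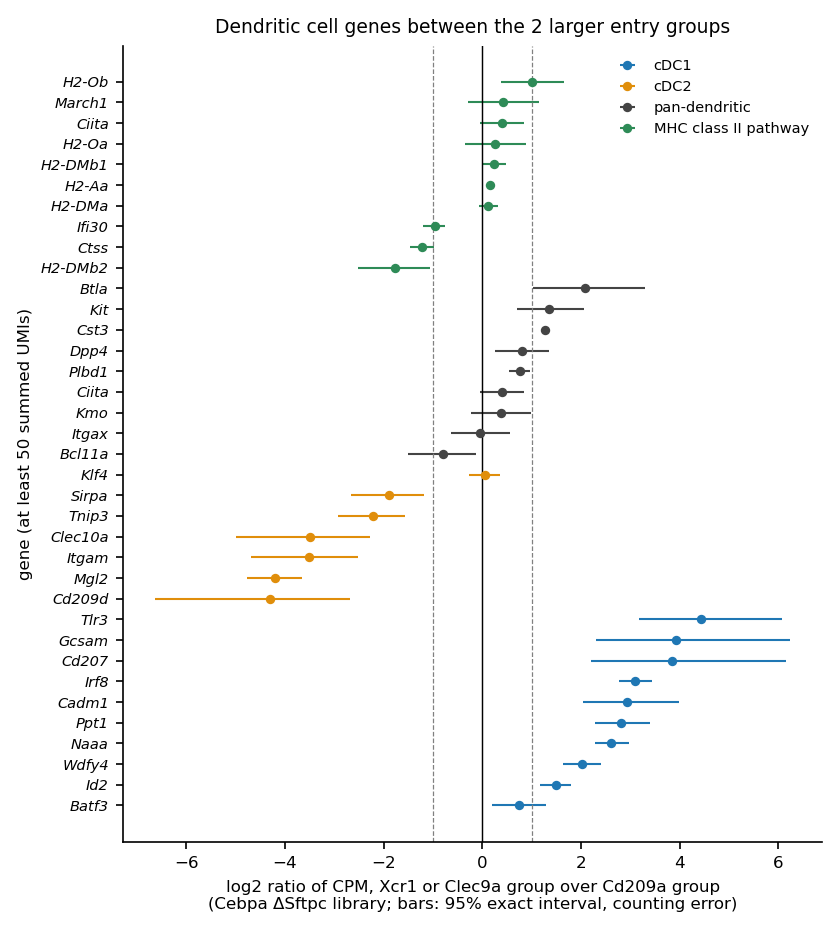
Log2 ratio of CPM of the *Xcr1* or *Clec9a* group over the *Cd209a* group in the *Cebpa* ΔSftpc library, for list genes with at least 50 summed UMIs; points are ratios, bars 95% exact intervals of counting error, dashed lines 2-fold. The cDC1 genes lie to the right, up to 4.43 for *Tlr3*, and 6 of 7 cDC2 genes lie left of the lower dashed line.

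In summed counts, cycling genes were higher in the *Xcr1* or *Clec9a* group. *Mki67*, expressed in dividing cells, stood at 278.4 CPM there against 30.1 CPM in the *Cd209a* group, and *Top2a* at 191.6 against 23.6 CPM. All 8 proliferation genes with 50 or more UMIs were past 2-fold higher there, with a median log2 ratio of 2.59. The signal came from few cells. *Mki67* had a UMI in 9 of 38 cells with a highest count of 77 of 154 UMIs, and 1 cell held 490 of the 2016 list UMIs of all *Cebpa* ΔSftpc gated cells (24.3%). Per cell the groups were closer. At least 10 list UMIs were in 10 of 38 *Xcr1* or *Clec9a* group cells and 10 of 41 *Cd209a* group cells, with medians of 7 and 5.

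The *Ccr7* group was small and sharply marked. In the 5 *Cebpa* ΔSftpc cells *Ccr7* (chromosome 11, 99144196 to 99155077) had 41, 53, 53, 54 and 63 UMIs, and *Fscn1*, an actin bundler of mature dendritic cells (chromosome 5, 142960343 to 142973185), had 27, 19, 5, 26 and 30 UMIs in the same cells. *Fscn1* stood at 1158 CPM there against 0 in the *Cd209a* group. All 5 also held *Relb*, an NF-κB factor of maturation, with 6 to 18 UMIs, and *Il4i1*, an amino acid oxidase, with 4 to 19. They differed in effector genes: *Ccl5*, a T cell chemokine, had 22, 7, 0, 225 and 64 UMIs, and *Il12b*, the interleukin-12 subunit, had 33 UMIs in 1 cell and 0 in the other cells. *Xcr1*, *Clec9a* and *Cd209a* had no UMI in any of the 5 cells, and *Cd274*, which encodes PD-L1, had 0, 3, 1, 0 and 9.

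The 2 *Cebpa* fl/fl cells of the *Ccr7* group held these genes too. The first, of 9580 UMIs, had 45 of *Ccr7*, 143 of *Ccl5*, 13 of *Fscn1* and 30 of *Il12b*. The second, of 13471 UMIs, had 53 of *Ccr7*, 109 of *Ccl5*, 55 of *Fscn1* and 13 of *Il12b*. Class II UMIs, counted over the 3 rule genes, were 51 and 46 in these cells, and 41 to 852 in the 5 *Cebpa* ΔSftpc cells.

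The other *Cebpa* fl/fl cells can be given one by one. A *Cd209a* group cell of 16296 UMIs had 23 UMIs of *Cd209a*, 30 of *Clec10a* and 542 of the class II genes. Another, of 12414 UMIs, had 24 of *Cd209a*, 29 of *Ccr2*, 19 of *Ly6c2* and 361 of the class II genes. The last, of 17449 UMIs, had 5 of *Cd209a*, 25 of *Ly6c2*, 38 of *Bst2* and 84 of the class II genes. *Lyz2* had 400, 439 and 10 UMIs in these 3 cells. Their monocyte list summed to 3770 CPM, against 3989 CPM in monocytes of that library, and their C1q macrophage list to 3271 against 3335 CPM. The cDC2 list summed to 1906 against 1827 CPM, and the general dendritic cell list to 3510 against 2615 CPM. The part of monocytes among these cells was not tested. The cell of the *Xcr1* or *Clec9a* group went against its label: of its 7975 UMIs, 51 belonged to the endothelial genes *Cldn5*, *Cdh5* and *Pecam1* and none to *Ptprc*, and it entered on 2 UMIs of *Clec9a*. *Clec9a* had a UMI in 1.31% of *Cebpa* fl/fl endothelial cells at a median of 5115 UMIs. No *Cebpa* fl/fl gated cell held an *Xcr1* UMI. No gated cell of the *Xcr1* or *Clec9a* group with a *Ptprc* UMI was seen in that library, and 0 of 9883 cells allows a share of up to 0.0304%, set as 3 cells of the total.

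**Figure D3:**
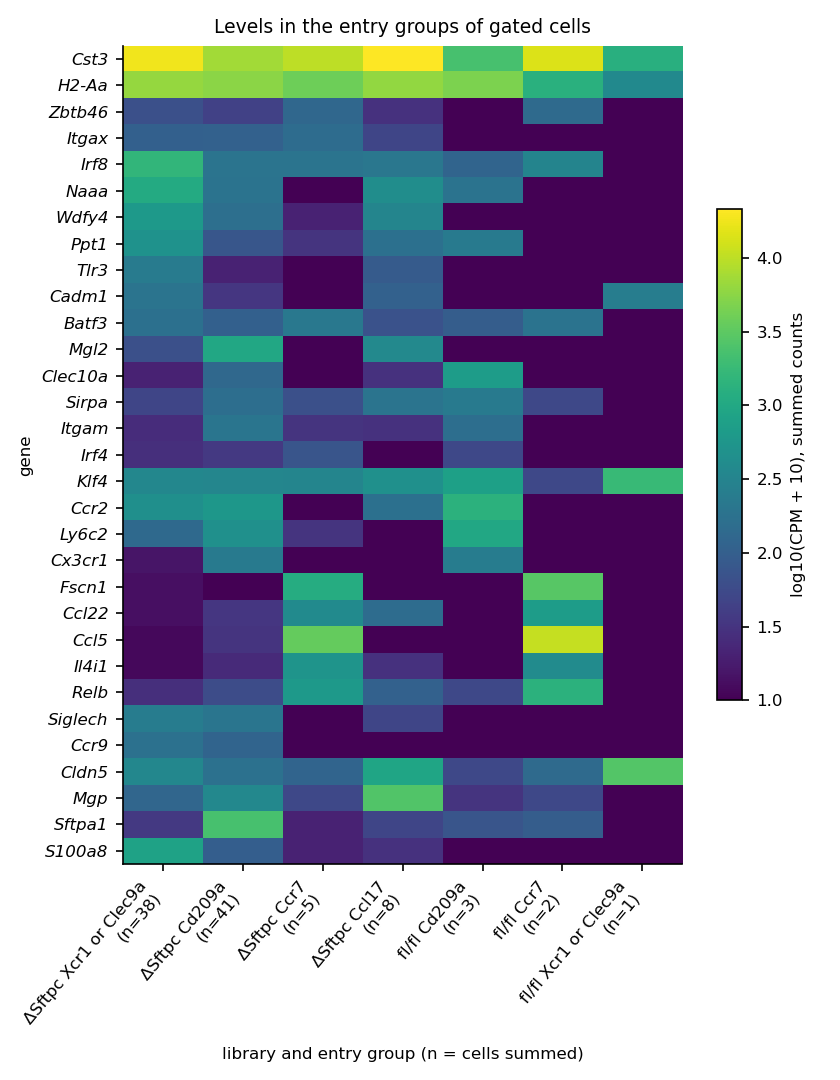
Levels of 31 genes as log10 of CPM plus 10 in the entry groups, with the number of cells summed in each column. *Irf8* and *Naaa* are brightest in the *Cebpa* ΔSftpc *Xcr1* or *Clec9a* column, *Mgl2* in the *Cd209a* column and *Fscn1* and *Ccl5* in both *Ccr7* columns, while the lone *Cebpa* fl/fl *Xcr1* or *Clec9a* cell shows *Cldn5*.

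The *Ccl17* group of 8 *Cebpa* ΔSftpc cells was the shallowest, with a median of 4022 UMIs. *Cst3* stood at 21424 CPM, but genes of matrix and vessel cells were among those that set the group apart from the other gated cells: *Mgp*, a matrix protein, stood at 2626 CPM, *Col1a1*, a collagen chain, at 676.3 CPM and *Kdr*, a receptor for vascular endothelial growth factor, also at 676.3 CPM, with 94.1% of its UMIs in 1 cell. *Cldn5*, an endothelial junction protein, stood at 895.1 CPM. One cell held 218 of the group's 280 endothelial list UMIs, and 1 cell held 771 of its 1077 *Cst3* UMIs. These 8 cells go against their label in part, since 5 of them passed a limit for another lineage.

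Some gated cells carried the genes of other lineages, and 31 of 92 *Cebpa* ΔSftpc cells passed at least 1 of the limits set for this (10 UMIs of the endothelial list or of *Siglech*, *Ccr9*, *Ly6d* and *Klk1* together, or 50 UMIs of the AT2, fibroblast, neutrophil or erythroid list). At 10 UMIs or more, the AT2 list was met in 26 cells and the endothelial list in 22. The AT2 list holds *Napsa*, a protease gene that monocytes of the same library also carried at 479.5 CPM, and it gave 311.0 of the 444.7 CPM of that list in the *Xcr1* or *Clec9a* group. All 10 endothelial list genes were detected, at a summed 1450 CPM in *Cebpa* ΔSftpc gated cells and 2708 CPM in *Cebpa* fl/fl gated cells, with *Cldn5* (275.5 CPM) and *Calcrl* (479.4 CPM) the most abundant in each. In *Cebpa* fl/fl 186 of the 209 endothelial list UMIs lay in the 1 cell described above. Without cells at or above 10 of these UMIs the list summed to 377.0 CPM in 70 *Cebpa* ΔSftpc cells and 332.3 CPM in 5 *Cebpa* fl/fl cells. Their part in the results was not tested. A single *Cd209a* group cell of 22780 UMIs, with no *Ptprc* UMI, held 1072 UMIs of *Sftpa1* and 73.1% of all AT2 list UMIs. A single *Xcr1* or *Clec9a* group cell with 24 *Ptprc* and 743 class II UMIs held 85.6% of the neutrophil list UMIs, 485 of them of *S100a9*. Without these 31 cells and the 1 *Cebpa* fl/fl cell, 61 and 5 gated cells remained (0.670% and 0.0506% of cells), a log2 ratio of 3.73, and the groups kept 28 *Cd209a*, 26 *Xcr1* or *Clec9a*, 4 *Ccr7* and 3 *Ccl17* cells in *Cebpa* ΔSftpc. T or NK list genes were nearly absent, at 22 UMIs over the 92 cells.

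A set of 6 *Cebpa* ΔSftpc gated cells carried the genes of plasmacytoid dendritic cells, which make type I interferon and are not conventional dendritic cells. They were picked by at least 10 UMIs of *Siglech*, *Ccr9*, *Ly6d* and *Klk1* together, so the shares of these 4 genes are a description of the choice. *Siglech*, their lectin receptor (chromosome 7, 55768178 to 55778925), had 37, 42, 41, 41, 40 and 8 UMIs in them, which is 93.7% of its 223 UMIs. *Ly6d* lay there at 99.6% of 230 UMIs, *Ccr9*, a chemokine receptor, at 90.7% of 140 UMIs, and *Klk1* at 100%. *Cox6a2*, not used to pick the cells, also had 100% of its 51 UMIs there. Endothelial list UMIs numbered 97, 259 and 23 in 3 of the 6 cells, and the cell with 259 held the most of any gated cell. The same cells had no UMI of *Zbtb46* or *Itgax*, had 9 to 27 UMIs of *Cst3*, and entered on 2 to 5 UMIs of the rule's dendritic cell genes. They bore on *Irf8*: the 3 in the *Cd209a* group held 29, 17 and 6 of that group's 84 *Irf8* UMIs, and the 3 in the *Xcr1* or *Clec9a* group held 31, 58 and 17 of 859. They fell equally in the *Cd209a* group (3 cells) and the *Xcr1* or *Clec9a* group (3 cells), and no *Cebpa* fl/fl gated cell held *Siglech*.

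**Figure D4:**
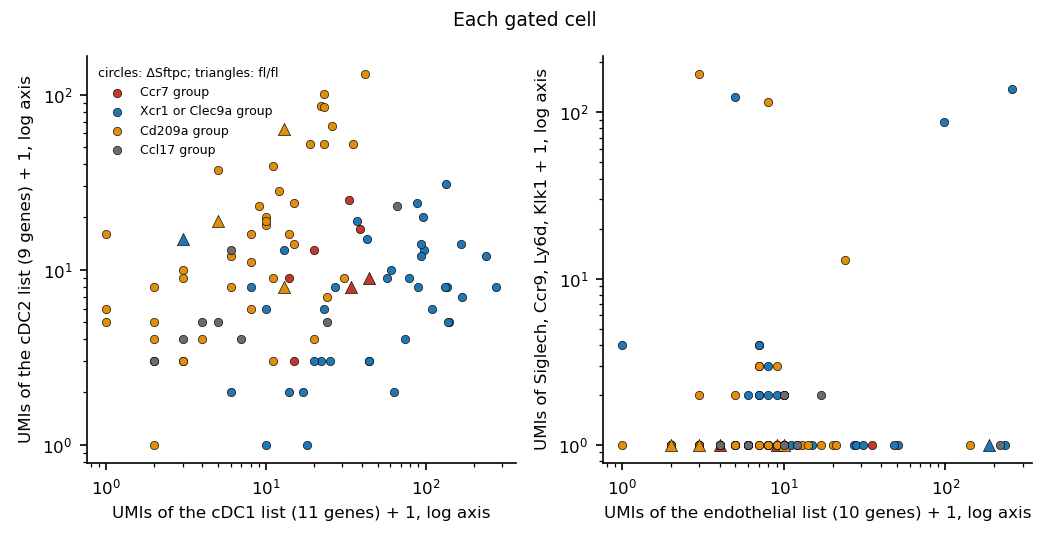
Each gated cell by UMIs of the cDC1 and cDC2 lists (left) and by UMIs of the endothelial list and of *Siglech*, *Ccr9*, *Ly6d* and *Klk1* (right), plus 1 on log axes; circles are *Cebpa* ΔSftpc, triangles *Cebpa* fl/fl, colours the entry groups. Blue cells spread to the right on the left panel, and 6 circles stand at or above 12 UMIs of the plasmacytoid genes on the right panel.

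Within the *Cebpa* ΔSftpc library, gated cells were compared with C1q macrophages, alveolar macrophages, monocytes and B cells. NK cells, T cells and neutrophils were not compared. Genes outside the rule that set gated cells apart from the compared leukocytes were led by *Klrd1*, at 201.5 CPM against at most 11.5 CPM. It encodes a lectin-like receptor also found on NK cells. *Sept3*, a septin, stood at 161.0 against at most 7.55 CPM, and *Tbc1d4*, a trafficking regulator, at 272.1 against at most 25.5 CPM. *Gcsam*, at 49.1 CPM, and *Ifi205*, at 132.6 CPM, followed the cDC1 cells. Among the 20 genes were ones that rested on single cells: 97.7% of *Sftpa1*, 97.6% of *Tagln*, 94.8% of *Acta2*, 92.9% of *Hist1h1b* and 89.8% of *Sftpb* UMIs lay in 1 cell each, and *Apol7c* (86.1 CPM) lay in 3 cells. Of the *Ccr9* UMIs 90.7%, and of the *Klk1* UMIs 100%, lay in the 6 cells picked by plasmacytoid genes.

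**Figure D5:**
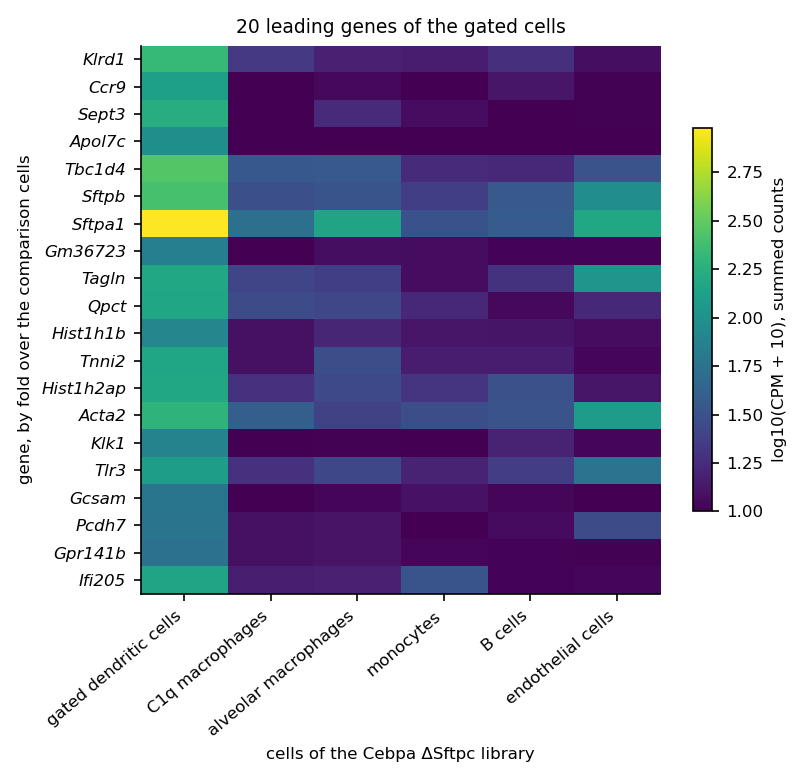
The 20 genes outside the rule with the largest fold of gated cells over the compared leukocytes in the *Cebpa* ΔSftpc library, as log10 of CPM plus 10 in 6 kinds of cells. The gated column is brightest in every row, although *Sftpa1*, *Tagln*, *Acta2*, *Hist1h1b* and *Sftpb* rest mostly on single cells.

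Across cell types of the *Cebpa* ΔSftpc library, the class II genes outside the rule were compared as a description, since the gate itself asked for class II UMIs and the monocyte gate set a ceiling on them. The class II pathway list summed to 9357 CPM in gated cells, 9709 CPM in C1q macrophages, 5425 CPM in B cells and 2539 CPM in monocytes. *Irf8* stood at 835.2 CPM in gated cells, 149.0 CPM in C1q macrophages, 189.8 CPM in B cells and 177.0 CPM in monocytes. Among regulators of T cells, *Cd83*, a maturation marker, reached 973.6 CPM in the *Ccr7* group against 211.5 CPM in the *Xcr1* or *Clec9a* group and 88.1 CPM in the *Cd209a* group. *Ccl4*, a chemokine, was at 180.8 CPM in gated cells and 58.8 CPM in monocytes. Its 210 UMIs lay in 25 gated cells, 38.1% of them in 1 cell.

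Between the genotypes, the gene comparison set 77185 UMIs of 6 cells against 1161429 UMIs of 92 cells and carries the mix of groups in each. Of 3755 genes with at least 50 summed UMIs, 250 (6.66%) were past 2-fold higher and 331 (8.81%) past 2-fold lower in *Cebpa* ΔSftpc, and among these the intervals of 104 and 252 genes left out 0. With totals that leave out mitochondrial, ribosomal, hemoglobin, surfactant and secretoglobin genes 301 were higher and 281 lower, and with TMM scaling 288 and 292. With totals unchanged, 218 were higher and 224 lower without cells carrying other lineages. At 200 UMIs per gene 70 were higher and 48 lower. Both of these settings measured fewer genes. The excess of lower genes therefore varied with the scaling, the UMI minimum and the cells used. The rule itself also leaned to lower genes. With a *Cebpa* fl/fl floor of 3 counts and unequal totals, genes near 50 UMIs could be called lower but not higher. At a minimum of 20 UMIs per gene, 1293 were lower and 250 higher, the same higher count as at 50 UMIs. The median log2 ratio of all genes was 0.01. For 114 of the 250 higher genes the *Cebpa* fl/fl count was under 3 UMIs and was set to a floor of 3 counts per group.

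Of 10 cDC1 list genes, 6 were past 2-fold higher in *Cebpa* ΔSftpc and 0 lower, with a median log2 ratio of 1.20, and 38 of its 92 cells were of the *Xcr1* or *Clec9a* group. Over all 3755 genes 6.66% were higher and 8.81% lower, which is the background for list counts between the genotypes. *Id2*, a regulator of cDC1 development, went the other way without passing 2-fold, at 855.1 CPM in *Cebpa* fl/fl and 524.4 CPM in *Cebpa* ΔSftpc, a log2 ratio of −0.71 (−1.07 to −0.32). *Irf8* stood at 155.5 CPM (12 UMIs) in *Cebpa* fl/fl and 835.2 CPM in *Cebpa* ΔSftpc, a log2 ratio of 2.43 (1.61 to 3.38), and *Naaa* at 103.6 and 596.7 CPM, 2.53 (1.54 to 3.74). Within the *Cd209a* group alone *Irf8* stood at 108.3 CPM in *Cebpa* fl/fl and 180.4 CPM in *Cebpa* ΔSftpc, a log2 ratio of 0.74 (−0.54 to 2.40) on 5 and 84 UMIs. Without the 3 plasmacytoid cells it stood at 73.0 CPM in *Cebpa* ΔSftpc, and the log2 ratio was −0.57 (−1.94 to 1.15). *Naaa* differed little between the genotypes within the *Cd209a* group. Over all gated cells *Wdfy4* had 0 and 428 UMIs. Of 7 cDC2 list genes 1 was higher, *Mgl2* with 0 and 511 UMIs, and 1 was lower, *Clec10a*, with a median of −0.48 that turned to 0.28 in the *Cd209a* group alone and to 1.27 over genes with at least 200 UMIs. *Egr1*, an immediate early gene, stood at 64.8 and 965.2 CPM, a log2 ratio of 3.90 (2.67 to 5.52), and at 221.5 and 278.8 CPM in the endothelial cells of the same libraries. Of 14 immediate early and heat shock list genes, 2 were past 2-fold higher and 0 lower, with a median log2 ratio of 0.40. *S100a8* and *S100a9* had no *Cebpa* fl/fl UMI and 492 and 558 *Cebpa* ΔSftpc UMIs, 87.6% and 86.9% of them in 1 cell, while *S100a8* stood at 148.1 CPM in *Cebpa* ΔSftpc endothelial cells against 1.87 CPM in those of *Cebpa* fl/fl.

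Of 10 mature dendritic cell list genes, 0 were past 2-fold higher in *Cebpa* ΔSftpc and 8 lower, with a median log2 ratio of −1.87, or −0.57 over genes with at least 200 UMIs. The *Ccr7* group held 2 of 6 *Cebpa* fl/fl cells and 5 of 92 *Cebpa* ΔSftpc cells. *Il12b* stood at 557.1 and 31.0 CPM, a log2 ratio of −4.17 (−4.85 to −3.49), *Ccl5* at 3265 and 283.3 CPM, −3.53 (−3.77 to −3.28), and *Fscn1* at 881.0 and 93.9 CPM, −3.23 (−3.68 to −2.77). A change of expression within cells and a change in the mix of groups cannot be told apart. Within the *Ccr7* group, *Fscn1* was at 2950 CPM in the 2 *Cebpa* fl/fl cells and 1158 CPM in the 5 *Cebpa* ΔSftpc cells. The whole mature list summed to 11540 and 8709 CPM in these cells, against 3654 and 1108 CPM over all gated cells. *Clec10a* stood at 414.6 and 55.1 CPM, and in the *Cd209a* group alone at 693.3 CPM in 3 cells and 122.4 CPM in 41 cells, most of the first from 1 cell with 30 of the 32 UMIs.

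Other gene lists were counted between the genotypes in the same way. The background was again 6.66% higher and 8.81% lower over all 3755 genes. Genes near the UMI minimum could be called lower but not higher in these lists too. Of 11 class II pathway genes, 4 were past 2-fold higher in *Cebpa* ΔSftpc and 1 lower, with a median log2 ratio of 0.81 that was 0.00185 over genes with at least 200 UMIs. Of 18 class I pathway genes, which load peptide for CD8 T cells, 0 were past 2-fold higher and 5 lower, with a median of −0.81. Of 8 chemokine genes 3 were higher and 4 lower, with a median of −0.54 that was 0.66 in the *Cd209a* group alone. Of 8 proliferation genes 4 were higher and 0 lower, with a median of 1.09 that was 0.22 with equal weight per cell, and of 10 general dendritic cell genes 4 were higher and 1 lower. The 7 monocyte genes had a median of −0.10, with 0 past 2-fold higher and 2 lower, and the median was 0.43 among cells with a *Ptprc* UMI.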

How the data were processed

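Mouse lungs of both genotypes were enzymatically digested and sequenced with 10x 3′ chemistry; per the labels, live cells were sorted first. The authors deposited UMI counts per gene and barcode, made with Cell Ranger 6.1.1 on mm10 per the labels, while the matrix header names version 5.0.0. The files hold 11721 and 13373 barcodes, the numbers the study gives after its filter, and its filter (200 genes, 20% mitochondrial UMIs) left 11487 and 13238. Counts were summed over cells and expressed as CPM, ratios with exact conditional intervals (95%, floor of 3 counts). Past 2-fold was a rule of size on genes with 50 UMIs, with no test. Comparison cells were gated by marker sums, and gene positions came from GENCODE vM21 (GRCm38) by Ensembl ID. Named genes were the 12 highest and lowest ratios whose interval left out 0 and whose CPM was 2 times that of endothelial cells, the 10 highest and lowest without that condition, the 20 largest folds over comparison cells, list members and *Cebpa*. The leading genes of *Cebpa* ΔSftpc gated cells alone, the single cells described and the limits for other lineages were chosen after seeing the data. The members and the 29 gene lists were chosen with earlier results of these data known. Doublets were kept. Scrublet called 2 of 13238 *Cebpa* ΔSftpc cells, a rate at which it has not worked, so the top 8% of scores was left out as an alternative, with TMM scaling (edgeR 4.0.16) as another. scanpy 1.11.5, scipy 1.17.1 and Python 3.11.15 were used. The ratio was checked on simulated counts.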

Additional observations from a re-analysis of the deposited data

How the results depend on the processing

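The log2 ratio of shares was 4.06 and stayed between 3.73 and 4.31 in 9 of 10 alternatives, the thinned one with its 1 *Cebpa* fl/fl cell set to a floor of 3 counts. With *Ptprc*-positive cells as the denominator it was -0.077, with an interval of -1.36 to 1.58. After thinning to 1500 UMIs, 45 *Cebpa* ΔSftpc cells and 1 *Cebpa* fl/fl cell passed: the *Ccl17* group held 26.7%, the *Cd209a* group 31.1% and the *Xcr1* or *Clec9a* group 31.1% in *Cebpa* ΔSftpc, and 0%, 100% and 0% fell to the *Ccr7*, *Cd209a* and *Xcr1* or *Clec9a* groups in *Cebpa* fl/fl. Without cells carrying other lineages, an alternative added after seeing the data as was the need of a *Ptprc* UMI, the *Cebpa* fl/fl *Xcr1* or *Clec9a* share was 0%. Higher and lower genes numbered 70 and 48 at 200 UMIs per gene, 250 and 1293 at 20 UMIs, and 122 and 81 in the *Cd209a* group alone, against 250 and 331; the first and last test fewer genes. In that group *Irf8* had a log2 ratio of 0.74 and *Naaa* 0.01, and without its 3 plasmacytoid cells, also added after seeing the data, *Irf8* turned to −0.57. Of 448 alternative values of named genes, 428 stayed within the interval of the reported ratio, 19 moved outside it and that 1 turned. At 20 or 200 UMIs per gene the ratio of a gene is unchanged, so those values stayed by construction. Intervals on few *Cebpa* fl/fl UMIs are wide, so staying within them is a weak check. Of 290 alternative medians of gene lists, 35 moved by over 1.5 times: the mature dendritic cell median was −0.57 and the class II median 0.00185 at 200 UMIs per gene, the proliferation median 0.22 with equal weight per cell, and the cDC2 median, −0.48, turned to 0.28 in the *Cd209a* group and 1.27 at 200 UMIs. The monocyte median, −0.10, was 0.43 among cells with a *Ptprc* UMI. Leaving out 8% by Scrublet removed 1 *Cebpa* fl/fl cell and 0 *Cebpa* ΔSftpc cells, although 31 carried other lineages. No paired analysis was possible because each genotype was 1 library. With 1 library and 6 *Cebpa* fl/fl cells, counting error is wide for genes with few UMIs, and gated cells reached down to 1553 UMIs in *Cebpa* ΔSftpc and 7975 in *Cebpa* fl/fl.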
